A study of Mus musculus with 6 samples.

Results

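The cells described here are single cells of the mouse ventromedial hypothalamus (VMH) in which Tac1 was counted and Rprm was not. Tac1 encodes the precursor of the tachykinin peptides substance P and neurokinin A, and Rprm encodes reprimo, a target of p53 that is also a marker of some VMH neurons. The wells were chosen by these 2 counts. A well of a sorting plate counted as a Tac1 well without Rprm when it held at least 3 Tac1 counts and 0 Rprm counts. It also had to pass a quality filter of at least 500 genes with a count and less than 25% of counts in mitochondrially encoded genes. Of the 576 wells, 530 passed the filter and 78 met the rule (14.7%, exact 95% binomial interval 11.8% to 18.0%). They came from all 6 mice, as 16, 9 and 15 wells of females 1, 2 and 3 and 17, 8 and 13 wells of males 1, 2 and 3. They were compared within each mouse with the 337 kept wells that held no Tac1 count, and with the 52 wells that held at least 3 Tac1 counts together with Rprm. The other 63 kept wells held 1 or 2 Tac1 counts and entered neither comparison.

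Neuropeptide genes such as Tac1 are transcribed as large precursors, which prohormone convertases cut in the secretory pathway into peptides that are stored in dense-core vesicles. Substance P acts mainly on the receptor encoded by Tacr1, and the related receptors Tacr2 and Tacr3 prefer the other tachykinins. The VMH is built mostly of glutamatergic neurons that use the vesicular transporter encoded by Slc17a6, and Tac1 neurons of its ventrolateral division are known from work on female activity and energy expenditure, where many of them carry estrogen receptor alpha, the product of Esr1.

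The study sorted VMH cells of 3 female and 3 male mice on postnatal day 10 and sequenced 1 plate of 96 wells per mouse. All 6 mice had the same genotype, Ai14f/+;Sf1-Cre, and no treatment was named, so sex was the only difference between the groups that the labels name. Each mouse was its own plate, and the day on which a plate was processed was not given in the sources used here. Cells carried a red fluorescent reporter that Sf1-Cre switches on in any cell whose lineage has expressed Nr5a1 (SF-1). A sorted cell therefore need not express Nr5a1 at the time of sorting, and a cell of another region or type with such a history can enter the sort. Tissue was dissected roughly from the hypothalamus and dissociated with papain, and transcriptome libraries were made with the BD Precise kit. Whether a mouse was a littermate of another was not given in the sources used here. Exact permutation p-values rest on the values of these 6 mice. The edgeR p-values and SEs below also draw on a spread shared over genes. For a single gene they need not measure its own spread between mice.

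Kept wells held 185654 to 783270 counts per mouse in sum. Female 2 stood apart, with a median of 2097 counts per kept well against 5170 to 7979.5 in the other 5 mice, and every test is given with and without it where its call changes. Summed counts of the Y-linked genes Ddx3y, Eif2s3y, Uty and Kdm5d over kept wells were 1, 0 and 1 for the females and 35, 28 and 67 for the males, as the labels of sex state. All 96 well names recur on each plate, and 0 kept wells had the same counts as another well. Binomial intervals given for single groups of wells cover counting error only.

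Since the wells were selected on Tac1, its level is a description. The 78 wells held 1371 Tac1 counts in all, from 3 to 118 per well with a median of 10.5. By mouse the median was 21.5, 8 and 7 in females 1, 2 and 3 and 16, 4.5 and 11 in males 1, 2 and 3. Tac1 was thus spread over more than an order of magnitude within most mice, and the medians of the sexes overlapped. At least 10 counts were found in 40 wells and at least 50 in 5. As a share of the well's own counts, Tac1 made up 0.0367% to 0.893%, with a median of 0.149%. When wells were summed within a mouse and scaled by the sum of all their counts (CPM, the usual scale of gene counts), Tac1 stood at 3332, 3664 and 1954 CPM in the females and 2885, 1614 and 1856 CPM in the males. In the wells with both genes it stood at 4732, 6007 and 2739 CPM in the females and 1652, 1560 and 3418 CPM in the males, so the levels of the 2 kinds of Tac1 well overlapped.

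**Figure D1:**
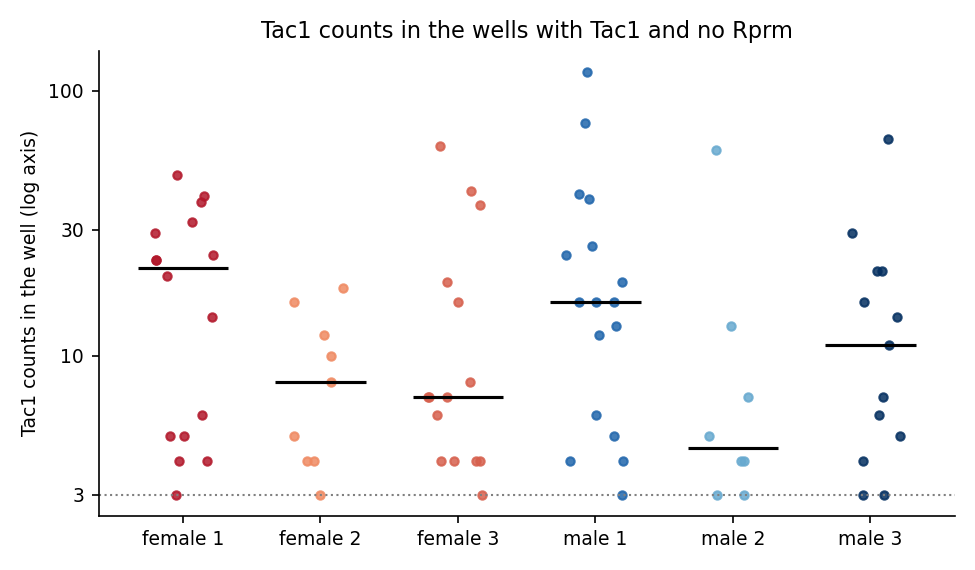
Tac1 counts (log axis) in each of the 78 Tac1 wells without Rprm, by mouse; each point is a well, black lines are medians and the dotted line is the minimum of 3 counts. Wells range from 3 to 118 counts, and the medians from 4.5 in male 2 to 21.5 in female 1.

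At the edge of the rule, 8 wells held 3 Tac1 counts and no Rprm (median 5508 counts of all genes per well), and 12 wells just outside held 2 Tac1 counts and no Rprm (median 6758). On the Rprm side, 18 wells with at least 3 Tac1 counts held a single Rprm count, at a median of 6227.5 counts and 10.5 Tac1 counts. The other 34 wells held 2 to 25 Rprm counts, at a median of 8267 counts and 18.5 Tac1 counts. The median Tac1 well without Rprm held 7149 counts, at which 1 count equals 140 CPM. A low level of Rprm could thus be missed in a well, and 0 counts is not taken as absence. Rprm was counted in 40% of the 130 wells with at least 3 Tac1 counts (31.5% to 49.0%, exact 95% interval) and in 31.8% of the 337 wells without Tac1 (26.8% to 37.0%).

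Tac1 wells without Rprm were deeper than wells without Tac1, which matters for every share of wells below. Their median counts per well were 5837.5, 2208 and 8203 in females 1, 2 and 3 and 9315, 8241.5 and 7949 in males 1, 2 and 3. Wells without Tac1 held 4659, 1893 and 5432 counts in the females, and the males' held 7026, 5241 and 7491. The first were higher in 6 of 6 mice, by 1669 counts on average (SD 1176), with a two-sided exact sign-flip permutation p of 0.031, the smallest that 6 mice allow. A rule that asks for 3 Tac1 counts in one kind of well and 0 in the other itself favours depth in the first, so this p does not test depth apart from the rule. Median genes per well were higher by 392 (SD 236; 6 of 6 mice; exact sign-flip permutation p = 0.031). The part of depth in a difference given below was not tested except where wells were thinned to 1 depth. Median mitochondrial shares were 5.19% to 5.91% in Tac1 wells without Rprm and 4.13% to 5.31% in wells without Tac1, and were higher in the first in 6 of 6 mice.

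The label of neurons held. Tubb3, a neuronal tubulin, was counted in 78 of 78 Tac1 wells without Rprm, and Snap25, a protein of synaptic vesicle fusion, in 67. The 12 pan-neuronal genes summed to 10605 to 13870 CPM across mice, against 10502 to 14300 CPM in wells without Tac1. Markers of other cells were low. The 10 astrocyte and tanycyte markers summed to 0 to 51.0 CPM in the 6 mice (5 of 10 genes at 0), the 10 oligodendrocyte lineage markers to 0 to 110 CPM (5 at 0) and the 10 microglial markers to 0 to 19.8 CPM (7 at 0). The 10 endothelial and mural markers summed to 0 to 45.8 CPM (8 at 0), and 8 of 8 pituitary markers were at 0 in all 78 wells. Among the 530 kept wells, 6 held at least 3 of 6 astrocyte markers, and these had a median of 986 counts and no Tac1, Rprm, Nr5a1, Fezf1 or Adcyap1 count, while Slc17a6, Pdyn and Gal each had a count in 1 of them.

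These neurons were almost all glutamatergic by their transmitter genes. Slc17a6 was counted in 70 of the 78 wells (89.7%, exact 95% interval 80.8% to 95.5%), as 15 of 16, 5 of 9 and 14 of 15 wells of females 1, 2 and 3 and 16 of 17, 7 of 8 and 13 of 13 wells of males 1, 2 and 3. The low share was that of female 2, the shallow plate. Of the 8 wells without an Slc17a6 count, 4 came from female 2, and their median depth was 3651 counts. The other vesicular glutamate transporter genes were rare, with Slc17a7 in 0 wells and Slc17a8 in 2. A gene of GABA synthesis or packaging was counted in 3 wells: Gad1 in 1, Gad2 in 2 and the vesicular transporter gene Slc32a1 in 0 of 78 wells. By a floor of 3 counts, 0 of 78 allows up to 3.85% of wells with a count, which is no limit on cells that express the gene. Of the 337 wells without Tac1, 244 held Slc17a6 (72.4%) and 68 held one of the 3 GABA genes.

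Genes that give VMH neurons their identity were common but no single one marked every well. Fezf1, a zinc finger transcription factor, was counted in 45 of 78 wells (57.7%; 46.0% to 68.8%) and Sox14, a transcription factor of the SOX family, in 33 (42.3%; 31.2% to 54.0%). Nr5a1 itself, the gene whose promoter drives the Cre, was counted in 28 (35.9%; 25.3% to 47.6%), and Nkx2-1, a homeobox factor of the ventral hypothalamus, in 13. At least 1 of the 6 VMH markers Nr5a1, Fezf1, Nkx2-1, Nr0b1, Sox14 and Adcyap1 was present in 71 wells, at least 2 in 56 and at least 3 in 34. The 7 wells without any of them had a median of 3982 counts, and 3 of the 7 came from female 2. Fezf1 and Nr5a1 occurred together in 21 wells. Fezf1 and Sox14 occurred together in 20 wells, Fezf1 alone in 25, Sox14 alone in 13 and neither in 20. In wells without Tac1, at least 1 marker was present in 232 of 337.

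Genes of the ventrolateral VMH were sparse in these wells. Esr1 was counted in 2 of 78 wells (2.56%; 0.312% to 8.96%), 1 each of females 2 and 3, with a single count in each. Pgr, the progesterone receptor gene, was counted in 6 wells, of which 2 were from female 1, 3 from female 3 and 1 from male 1. In wells with both Tac1 and Rprm, Esr1 was counted in 7 of 52 (13.5%; 5.59% to 25.8%), and in wells without Tac1 in 11 of 337 (3.26%; 1.64% to 5.77%). The binomial intervals of the 2 kinds of Tac1 well overlap. By mouse, Esr1 was counted in 20% of the wells with both genes in female 2 and 37.5% in female 3. It was at 0% in female 1 and in every male, so the pooled share rests mostly on female 3. Across mice the exact sign-flip permutation p between the 2 kinds was 0.5 (adjusted over 12 genes 0.857). The melanocortin receptor gene Mc4r was counted in 4 wells, the neuropeptide Y receptor gene Npy2r in 6, the cholecystokinin receptor gene Cckar in 1 and the Notch ligand-like gene Dlk1 in 2. The 19 ventrolateral genes together summed to 81.5 to 251 CPM across mice, against 203 to 455 CPM in wells with both genes and 199 to 382 CPM in wells without Tac1, with 0 of them abundant enough to be tested. Leptin receptor (Lepr) was counted in 1 of 78 wells and the oxytocin receptor gene Oxtr in 5.

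Other genes of the tachykinin system were hardly detected. Tac2, the neurokinin B precursor gene, was counted in 1 well of female 1, and Tac4, the hemokinin precursor gene, in 0 wells of any of the 3 groups. Tacr1 and Tacr2 had 0 counts in the 78 wells (up to 3.85% of wells with a count by the same floor), and Tacr3 was counted in 2. Tacr1 was counted in 15 of 337 wells without Tac1 and in 2 of 52 wells with both genes. Mme and Ace, which encode peptidases that cut substance P, were counted in 2 wells and 1 well. These 7 genes had 8 counts in the 78 wells in sum, and none was abundant enough to be tested. By contrast, the genes of peptide processing and granins were abundant, at 7878 to 9599 CPM for 11 genes against 7449 to 9482 CPM in wells without Tac1.

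Other peptide precursor genes divided the wells further. Adcyap1, the precursor gene of PACAP, was counted in 40 of 78 wells (51.3%; 39.7% to 62.8%) and Pdyn, the prodynorphin gene, in 33 (42.3%; 31.2% to 54.0%). Both occurred together in 19 wells, Pdyn without Adcyap1 in 14, Adcyap1 without Pdyn in 21 and neither in 24. Pdyn was absent from 9 of 9 wells of female 2, the shallow plate, and present in 13 of 17 wells of male 1. Penk, the proenkephalin gene, was counted in 8 wells, Cartpt in 8, Gal, the galanin gene, in 4, and Sst, the somatostatin gene, in 11. Cck, the cholecystokinin gene, was counted in 3 wells, 3 of them from male 1, and Npy, Agrp and Pmch in 0 of 78. Pomc was counted in 12 wells, with 1 count in each. The series holds 17 wells with 10 to 207 Pomc counts, none of them a Tac1 well without Rprm. Of the other 513 kept wells, the 78 Tac1 wells without Rprm included, 52 (10.1%) held a Pomc count. Whether the single Pomc counts in 12 of 78 wells (15.4%) were background was not tested. Bdnf was counted in 47 of 78 wells, and Oprk1, the kappa opioid receptor gene, in 15.

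The share of Tac1 in a well is given beside its other genes as a description, with no test, since the wells share 6 plates whose Tac1 levels differ. Tac1 per 10000 counts had a median of 10.4 in the 33 wells with Sox14 and 20.02 in the 45 without it, at median depths of 7151 and 7147 counts. The quartiles overlapped, at 6.03 to 31.0 with Sox14 and 10.1 to 41.9 without, and 0 of the wells with Sox14 and 9 of those without it came from female 2. For Calb1, which encodes the calcium buffer calbindin, the medians were 13.1 in 59 wells with a count and 33.3 in 19 without, but the depths were 7949 and 4661 counts, and 4 and 5 of the wells came from female 2. For Fezf1 they were 13.1 with and 20.02 without, at 8203 and 5317 counts, with 3 and 6 wells from female 2. For Adcyap1 they were closer, at 14.9 with and 16.3 without. The medians were also lower with a count for Pdyn (11.8 and 20.02), Wfs1 (13.8 and 19.8), Nrgn (13.8 and 19.1) and Nefm (14.2 and 18.3). The same held for Slc17a6 (14.4 and 17.1) and Nr5a1 (13.1 and 15.6), so every gene looked at went this way. With a minimum of 3 Tac1 counts, a shallow well enters only at a higher Tac1 share, so the rule ties this share to depth. The 5 wells with at least 50 Tac1 counts all held Slc17a6 and Calb2, 4 held Fezf1, 4 Nr5a1, 4 Pdyn and 3 Adcyap1, and 0 held Sox14, Nkx2-1, Esr1 or Pgr.

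To compare shares of wells at equal depth, every kept well was thinned to 1986 counts, which left out 53 wells, of which 38 were from female 2 and 1 was a Tac1 well without Rprm. Fezf1 was then counted in 31.5% ± 8.37 of Tac1 wells without Rprm and 20.5% ± 5.17 of wells without Tac1 (SD, n = 6 mice). The share was higher in 6 of 6 mice (exact sign-flip permutation p = 0.031, adjusted over 12 genes 0.188). Gad1 went the other way, at 1.11% ± 2.72 against 5.88% ± 2.72, and was lower in 6 of 6 mice (exact p = 0.031, adjusted 0.188). Adcyap1 was counted in 30.8% ± 10.3 against 18.1% ± 7.67, higher in 5 of 6 mice (exact p = 0.125, adjusted 0.25), and Slc17a6 in 63.8% ± 13.7 against 51.6% ± 9.51, higher in 5 of 6 (exact p = 0.09375, adjusted 0.225). Without thinning, Adcyap1 was in 51.9% ± 9.02 against 30.9% ± 7.26 and Fezf1 in 54.6% ± 17.1 against 34.0% ± 12.3. None of the 12 genes passed 0.05 after adjustment at either depth. The smallest exact p that 6 mice allow is 0.031, and adjustment keeps it above 0.05 unless most of the 12 genes reach it. Not passing therefore says little about a single gene here. For Esr1 the thinned share was 0% in all 6 mice against 1.59% ± 2.63, a difference within the spread between mice (exact permutation p = 0.5), and no level near 1 count per well was read as a change.

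**Figure D2:**
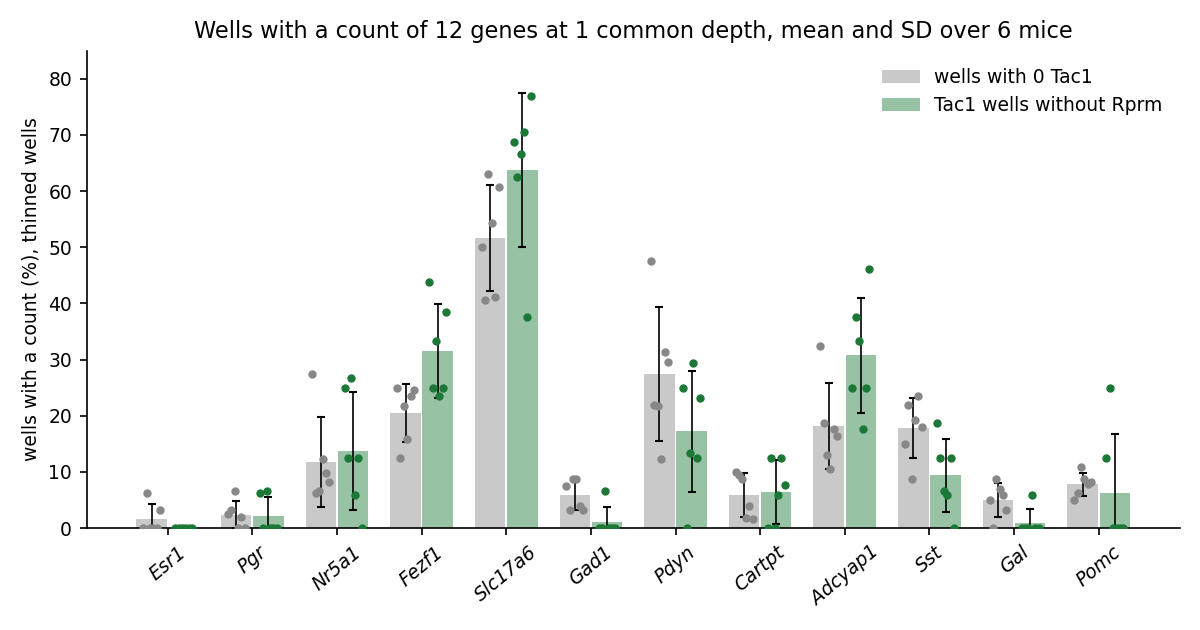
Share of wells with a count (%) of 12 genes after thinning each well to 1986 counts, in wells without Tac1 (grey) and Tac1 wells without Rprm (green); bars are means, error bars SDs with the lower arm stopped at 0, and points the 6 mice. Fezf1 was higher and Gad1 lower in the green wells in 6 of 6 mice. No gene passed after adjustment over the 12, which with 6 mice needs most of the 12 at the smallest p.

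Counts were next summed over the wells of each kind in each mouse and tested across all genes with edgeR's quasi-likelihood test, with the mouse as a block. A summed level joins the share of wells that express a gene and the level within them. Of 2616 genes tested against wells without Tac1, 19 had an adjusted p under 0.05 (0.726% of genes tested), 13 higher (0.497%) and 6 lower (0.229%) in Tac1 wells without Rprm. At an unadjusted p under 0.05 there were 230, and 131 genes moved the same way in all 6 mice (5.01%). The higher genes encoded neurofilaments (Nefm, Nefl), proteins of the secretory pathway and its membranes (Wfs1, Resp18), a peptide precursor (Adcyap1), a postsynaptic calmodulin-binding protein (Nrgn), a protease inhibitor (Serpine2), subunits of signalling proteins (Dpp6, Gng13, Gabra5) and Nnat, Got1 and mt-Nd1. The lower genes were Sst, Tmem176b, Hpcal1, Rab3b, Pcp4 and Fxyd6. Without female 2, 9 were higher and 5 lower, 13 of the 19 among them. The count fell most without female 3, to 2 higher and 3 lower, 5 of the 19 among them, and it was 19 and 11 without female 1, 6 and 9 without male 1, 8 and 7 without male 2 and 5 and 7 without male 3.

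Wfs1 encodes wolframin, a membrane protein of the endoplasmic reticulum. It stood at 209.6, 91.6 and 280.3 CPM in the Tac1 wells without Rprm of females 1, 2 and 3 and at 184, 359 and 108 CPM in those of males 1, 2 and 3. Wells without Tac1 held 157, 21.8 and 112 CPM in the females and 86.1, 147 and 66.0 CPM in the males. The first were higher in 6 of 6 mice, although the ranges over mice overlapped, and female 2 was lowest in both. The log2 difference was 1.02 ± 0.19 (SE; edgeR adjusted p = 0.000497), and without female 3 it was 0.93 with an adjusted p of 0.0509. Wfs1 was counted in 50 of 78 wells (64.1%) against 114 of 337 (33.8%), and in 26 of 52 wells with both Tac1 and Rprm (50%).

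Nrgn encodes neurogranin, which binds calmodulin beneath the postsynaptic membrane. Its levels were 1457, 137 and 1750 CPM in the females' Tac1 wells without Rprm and 1509, 1695 and 1324 CPM in the males', against 1173, 138 and 917 CPM and 757, 631 and 716 CPM in wells without Tac1. In 5 mice the Tac1 wells lay above every well group without Tac1, while female 2 was low and equal in both. The log2 difference was 0.89 ± 0.09 (edgeR adjusted p = 6.44e-13), and the call held in 6 of 6 fits that each left out 1 mouse. It was lost with wells weighing equally in limma and without the mouse as a block, where 0 genes were higher. The difference ran from none in female 2 to 1695 against 631 CPM in male 2, a spread that the SE need not measure. Wells with both Tac1 and Rprm held Nrgn at 910 to 2411 CPM, so the higher level was not confined to wells without Rprm.

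Serpine2 encodes protease nexin-1, an inhibitor of serine proteases such as thrombin. It was counted in 59 of 78 Tac1 wells without Rprm (75.6%) and 126 of 337 wells without Tac1 (37.4%). Wells with both Tac1 and Rprm held it in 34 of 52 (65.4%), so a high share was not confined to wells without Rprm. The Tac1 wells held 283, 366 and 297 CPM in the females and 244, 277 and 432 CPM in the males, against 318, 109 and 149.7 CPM and 94.9, 211 and 173 CPM. Female 1 was the exception, with the level lower by a small amount in the Tac1 wells. The log2 difference was 0.87 ± 0.17 (edgeR adjusted p = 0.000735), with an adjusted p of 0.0846 without male 3.

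Adcyap1 was the peptide precursor gene that rose. The Tac1 wells without Rprm held 189, 366 and 136 CPM in females 1, 2 and 3 and 138, 163 and 261 CPM in males 1, 2 and 3, and the wells without Tac1 held 166, 131 and 109 CPM and 106, 92.9 and 78.4 CPM. The level was higher in 6 of 6 mice, most in female 2 and male 3, and the ranges overlapped. The log2 difference was 0.78 ± 0.20 (edgeR adjusted p = 0.0385). Without male 3 it was 0.50 with an adjusted p of 0.558, without female 2 0.73 (0.131), without female 3 0.86 (0.0865) and without male 2 0.77 (0.0839). At equal depth its share of wells did not pass, as given above.

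The neurofilament chain genes Nefm and Nefl rose together. Nefm stood at 189, 229 and 212 CPM in the females and 165, 179 and 135 CPM in the males, against 161, 124 and 112 CPM and 92.7, 54.4 and 57.7 CPM in wells without Tac1, higher in 6 of 6 mice (log2 difference 0.89 ± 0.21, edgeR adjusted p = 0.014). Nefl stood at 656 ± 79.0 CPM against 484 ± 72.0 CPM (SD, n = 6 mice) and was higher in 5 of 6 mice, with a log2 difference of 0.48 ± 0.11 (edgeR adjusted p = 0.0116). Their annotated exons share 1108 bases on opposite strands of mouse chromosome 14 (GRCm38/mm10, Nefm 68082590 to 68124846, Nefl 68083863 to 68089095). The strand of counting was not given in the sources used here, so reads of the pair may not be told apart. Of 11 tested pan-neuronal genes these 2 rose, 0 fell and the median log2 difference was 0.07, against 0.00 over all genes tested. The call of Nefm was lost in 4 of 6 fits that left out 1 mouse (without female 3 or any male; adjusted p 0.0536 to 0.116) and that of Nefl in 3 (without female 3, male 2 or male 3; 0.0918 to 0.153).

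The other genes that rose have various functions. Resp18, a gene of the regulated secretory pathway, stood at 2007 ± 390 CPM against 1628 ± 145 CPM (SD, n = 6 mice), higher in 6 of 6 mice (log2 0.27 ± 0.07, edgeR adjusted p = 0.0352). Dpp6, an auxiliary subunit gene of A-type potassium channels, was at 200.1 ± 85.3 against 127 ± 56.5 CPM, also higher in 6 of 6 (log2 0.67 ± 0.18, edgeR adjusted p = 0.0422). The imprinted gene Nnat was higher in 5 of 6 mice (log2 0.25 ± 0.06, edgeR adjusted p = 0.027), Gng13, a G protein gamma subunit gene, in 5 of 6 (0.77 ± 0.19, 0.0238), Gabra5, a GABA-A receptor subunit gene, in 4 of 6 (0.65 ± 0.17, 0.0385) and Got1, an aspartate aminotransferase gene, in 4 of 6 (0.42 ± 0.11, 0.0451). mt-Nd1, a subunit gene of respiratory complex I in the mitochondrial genome, stood at 16624 ± 1792 against 14717 ± 1507 CPM, higher in 6 of 6 mice (log2 0.17 ± 0.04, edgeR adjusted p = 0.00677). How reads that match nuclear copies of it were counted was not given in the sources used here, and the mitochondrial share of wells moved the same way, as given above. The calls of these 7 genes each held in 1 to 4 of 6 fits that left out 1 mouse. Without female 2, the adjusted p was 0.113 for Resp18, 0.0717 for Dpp6, 0.0517 for Gabra5 and 0.0517 for Got1.

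Sst was lower in Tac1 wells without Rprm by more than any other gene that passed. It stood at 126, 91.6 and 102 CPM in the females and 13.2, 1711 and 18.0 CPM in the males, against 1186, 2606 and 1666 CPM and 706, 2241 and 788 CPM in wells without Tac1. The level was lower in 6 of 6 mice, but male 2 stood far above the other 5. Its 8 wells held 105 Sst counts in 1 well of 10430 counts and 4 Tac1 counts, and 0 CPM without that well. The log2 difference was -2.44 ± 0.20 (edgeR adjusted p = 8.26e-18), -4.23 without male 2 and -2.33 without female 2. Fits that left out 1 mouse ran from -4.23 to -2.17, a range wider than the SE of 0.20 covers. In wells without Tac1, Sst was carried by 67 of 337 wells, 28 of them with at least 10 counts, and 2477 counts in all. Wells with both Tac1 and Rprm held 58 Sst counts in 10 of 52 wells. The difference was not past the threshold when only wells with Slc17a6 were compared (-0.79, adjusted p = 0.0694), when wells with a GABA gene or at least 10 Pomc counts were left out (-0.78, 0.47) or with edgeR's robust estimate of spread (0.358). The call of Sst therefore depends on which other neurons enter the comparison and on how the spread is estimated.

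Tmem176b, a membrane protein gene, stood at 31.4, 0 and 59.5 CPM in the females and 39.5, 16.3 and 0 CPM in the males, against 113, 102 and 146 CPM and 166, 125 and 115 CPM in wells without Tac1. Every mouse's Tac1 wells lay below every mouse's wells without Tac1, as for 4 of the 2616 genes tested (0.153%). The log2 difference was -2.16 ± 0.32 (edgeR adjusted p = 1.17e-06), and the call held in 6 of 6 fits that each left out 1 mouse. The 78 wells held 17 counts in 14 wells, against 249 counts in 117 of 337 wells. Wells with both Tac1 and Rprm held 13 counts in 8 of 52 wells, so few counts were not particular to wells without Rprm. The gene shares 81 exon bases with Tmem176a on the other strand.

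Pcp4 and Hpcal1 were also lower. Pcp4, which encodes a small calmodulin-binding peptide, stood at 534, 733 and 391 CPM in the females and 725, 701 and 532 CPM in the males, against 741, 924 and 898 CPM and 843, 890.2 and 792 CPM. The ranges of the 6 mice did not overlap (log2 difference -0.52 ± 0.10, edgeR adjusted p = 0.0011), and without female 3, whose difference was the largest, it was -0.39 with an adjusted p of 0.124. Hpcal1, a neuronal calcium sensor gene, stood at 147, 229 and 229 CPM and 92.2, 522 and 207 CPM, against 462, 742 and 382 CPM and 349, 516 and 338 CPM. It was lower in 5 of 6 mice, with male 2 nearly equal (log2 difference -0.97 ± 0.16, edgeR adjusted p = 1.81e-05), and passed in 6 of 6 fits that left out 1 mouse. Of the 10 tested calcium-binding genes, Hpcal1 was the only one to pass, 8 values were positive and the median was 0.07. Rab3b, a vesicle GTPase gene, was at 191 ± 71.3 against 303 ± 89.7 CPM (log2 -0.66 ± 0.16, edgeR adjusted p = 0.0228), and Fxyd6, a regulator gene of the sodium pump, at 1129 ± 247 against 1404 ± 250 CPM (-0.33 ± 0.08, 0.0228). Both were lower in at least 5 of 6 mice and lost their call in 3 or more fits that left out 1 mouse, Rab3b also without female 2 (edgeR adjusted p = 0.0557).

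**Figure D3:**
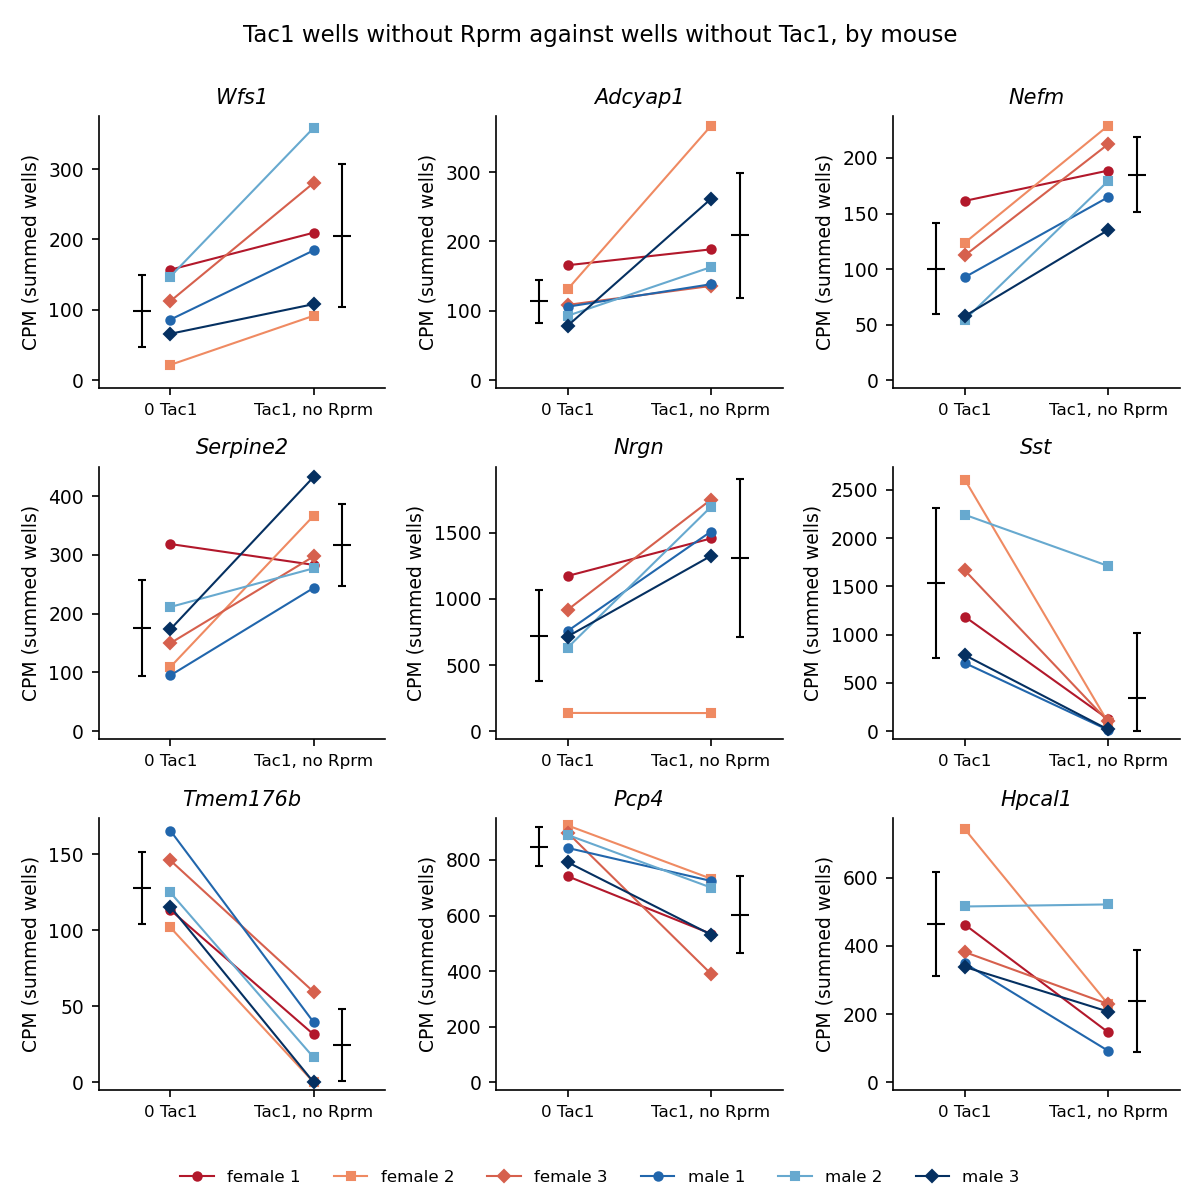
CPM of 9 genes in summed wells of each mouse, wells without Tac1 at left and Tac1 wells without Rprm at right; lines join the same mouse, and bars give the mean and SD over 6 mice, with the lower arm stopped at 0. Tmem176b and Pcp4 do not overlap between the groups, Nrgn is flat in female 2 and Sst in male 2 stays at 1711 CPM.

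Sums of markers of neighbouring neurons lay lower in Tac1 wells without Rprm, with overlap between mice. GABAergic markers (10 genes) summed to 0 to 161 CPM in Tac1 wells without Rprm (6 of 10 genes at 0) and 60.8 to 222 CPM in wells without Tac1. Arcuate markers (10 genes) summed to 48.9 to 135 CPM (4 at 0) against 118 to 2343 CPM, of which Pomc alone reached 2130 CPM in female 3. A GABA gene was counted in 68 of 337 comparison wells and 3 of 78 Tac1 wells without Rprm. The part of such wells in the differences above was not tested beyond the fits that follow. When wells with a GABA gene or at least 10 Pomc counts were left out, 75 Tac1 wells and 263 comparison wells remained, and 3 genes were higher and 3 lower. When only wells with Slc17a6 were used, 6 were higher and 4 lower, and all 10 were among the 19. The first of these alternatives was chosen after the data were seen. When comparison wells with Rprm were left out, 13 were higher and 9 lower, 14 of them among the 19. At equal depth, 1 gene was higher and 1 lower, both among the 19, and 12 of the 19 could be tested, each in its first direction.

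Among the VMH identity genes, Adcyap1 alone of 7 tested passed and 5 values were positive, with a median log2 difference of 0.16 against 0.00 over all genes. Fezf1 stood at 231, 137 and 339.8 CPM in the females and 165, 163 and 207 CPM in the males, against 144, 65.5 and 165 CPM and 157, 147 and 181 CPM, higher in 6 of 6 mice without passing the test (log2 0.47 ± 0.18, edgeR adjusted p = 0.275). Sox14 stood at 157, 0 and 119 CPM and 46.1, 114 and 90.1 CPM, against 74.1, 72.8 and 78.6 CPM and 39.7, 109 and 111 CPM (0.26 ± 0.27, 0.858). Nr5a1 was at 78.2 ± 27.7 against 85.6 ± 50.7 CPM (-0.08 ± 0.29, 0.989) and Slc17a6 at 523 ± 180 against 487 ± 167 CPM (0.11 ± 0.11, 0.858). Pdyn was at 193 ± 114 against 239 ± 119 CPM (-0.08 ± 0.18, 0.972). None of these 5 genes passed the test.

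Across the other gene groups few members passed. Of 17 tested synaptic vesicle and SNARE genes, 0 passed, 13 values were positive and the median was 0.19. Of 10 tested peptide processing and granin genes, 0 passed, 8 values were positive and the median was 0.08, and Scg5, a chaperone gene of the convertase PC2, was higher in 6 of 6 mice without passing (log2 0.25, edgeR adjusted p = 0.143). Of 73 cytosolic ribosomal protein genes, 0 passed, 61 values were negative and the median was -0.07. Of 6 mitochondrially encoded genes, mt-Nd1 passed, 5 values were positive and the median was 0.12. Of 10 imprinted genes, Nnat passed, 7 values were negative and the median was -0.12. Heat shock genes (9 tested) and axon growth and guidance genes (11 tested) had 0 that passed and medians of -0.06 and -0.05. Hpca, the hippocalcin gene, and Cbln1, a synapse organiser gene, had log2 differences of 0.46 and 0.58 with adjusted p of 0.0977 and 0.0724.

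Against the wells with both Tac1 and Rprm, 1 of 1662 tested genes passed (0.0602%), and it was higher in the wells without Rprm. No gene was lower at an adjusted p under 0.05, and 88 genes had an unadjusted p under 0.05. The same direction in all 6 mice was found for 55 genes (3.31%). With DESeq2, 0 genes passed in either direction. Without female 2 or without female 3, 0 genes were higher, and without male 2 and male 3 the count was 3 and 4. The gene was Calb1, which encodes the calcium buffer calbindin. It stood at 629, 366 and 789.9 CPM in the Tac1 wells without Rprm of females 1, 2 and 3 and 869.5, 489 and 856 CPM in those of males 1, 2 and 3. The wells with both genes held 78.0, 91.0 and 383 CPM in the females and 708, 193 and 458 CPM in the males. Calb1 was higher without Rprm in 6 of 6 mice, least in male 1, and the ranges overlapped (log2 difference 0.92 ± 0.18, edgeR adjusted p = 0.023). Without female 2 the difference was 0.91 with an adjusted p of 0.214, and without female 3 it was 0.89 (0.116). With DESeq2 it was 1.09 (0.0969).

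The wells that held Calb1 were equally common in both kinds, 59 of 78 (75.6%) and 39 of 52 (75%), but 54 and 28 of them held at least 2 counts. In wells without Tac1, Calb1 stood at 641, 378 and 734 CPM in the females and 806, 455 and 957 CPM in the males, near its level in Tac1 wells without Rprm (log2 difference 0.02, edgeR adjusted p = 0.995). Wells with both genes and wells without Tac1 were not tested against each other. Those with both genes had a median of 7659 counts, against 7149 in the wells without Rprm.

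Among the genes with the smallest p that did not pass, Pdyn had the largest difference. It stood at 168, 0 and 169.9 CPM in the females and 323, 212 and 288 CPM in the males of the wells without Rprm, against 182, 0 and 130.1 CPM and 82.6, 17.5 and 71.2 CPM in the wells with it. It was higher without Rprm in 4 mice, of which 3 were the males, lower in female 1 and at 0 in female 2 (log2 1.26 ± 0.32, edgeR adjusted p = 0.185). Cbln4, a secreted synapse organiser gene, stood at 98.5 ± 24.8 against 186 ± 77.6 CPM (-0.93 ± 0.28, 0.284). Sae1, a subunit gene of the SUMO-activating enzyme, was lower in every mouse with no overlap, at 45.8 to 178 against 182 to 364 CPM (-0.75 ± 0.23, 0.332), and such a gap was found for 3 of the 1662 genes (0.181%). Nap1l5, an imprinted gene, was at 2379 ± 1000 against 1688 ± 710.2 CPM (0.46 ± 0.10, 0.111) and the metallothionein gene Mt3 at 648 ± 116 against 406 ± 97.9 CPM (0.62 ± 0.15, 0.185). Brinp1 (0.92 ± 0.24, 0.221), Olfm2 (-0.83 ± 0.25, 0.311), Pcp4 (-0.50 ± 0.15, 0.284) and Tubb2b (-0.40 ± 0.12, 0.284) did not pass either.

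**Figure D4:**
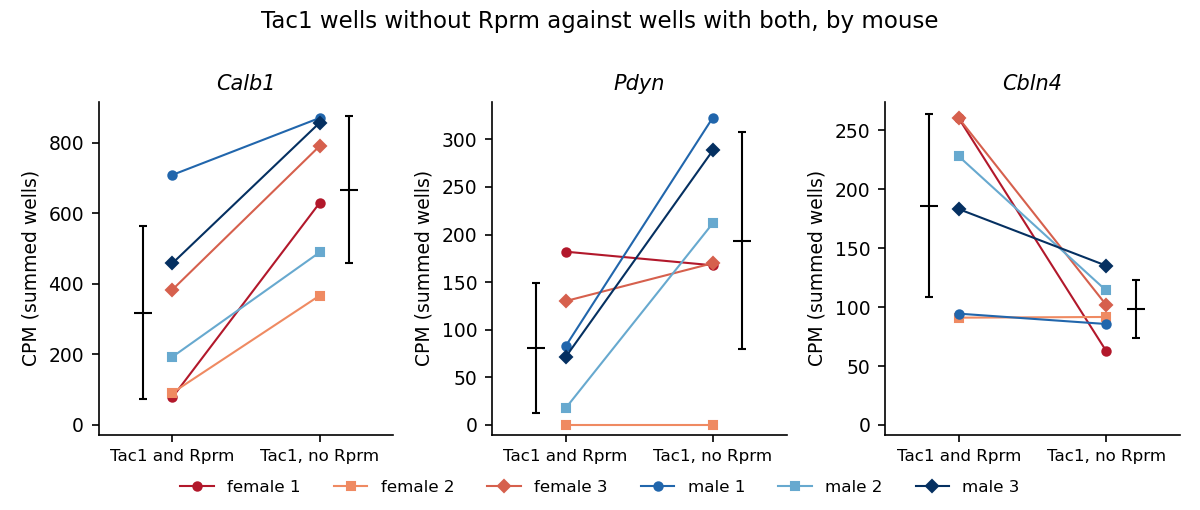
CPM of Calb1, Pdyn and Cbln4 in summed wells of each mouse, wells with Tac1 and Rprm at left and Tac1 wells without Rprm at right; lines join the same mouse, and bars give the mean and SD over 6 mice. Calb1 rises along every line, from 318 to 667 CPM on average, and the other 2 genes did not pass the test.

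For genes of VMH identity and transmitter use, no difference between the 2 kinds of Tac1 well passed the test. Fezf1 differed by 0.06 ± 0.25 on the log2 scale (edgeR adjusted p = 0.993), Slc17a6 by 0.08 ± 0.15 (0.989) and Adcyap1 by -0.28 ± 0.26 (0.983). As a share of wells, Adcyap1 was counted in 40 of 78 wells without Rprm (51.3%; 39.7% to 62.8%) and 41 of 52 with it (78.8%; 65.3% to 88.9%). Over mice at equal depth the shares were 30.8% ± 10.3 and 53.6% ± 27.6, lower without Rprm in 5 mice and equal in 1 (exact sign-flip permutation p = 0.0625, adjusted over 12 genes 0.75). Bcl11b was counted in 8 wells without Rprm (10.3%; 4.53% to 19.2%) and 14 with it (26.9%; 15.6% to 41.0%), Prdm13 in 5 (6.41%; 2.11% to 14.3%) and 11 (21.2%; 11.1% to 34.7%), and Penk in 8 (10.3%; 4.53% to 19.2%) and 17 (32.7%; 20.3% to 47.1%). Nkx2-2 went the other way, in 8 wells (10.3%; 4.53% to 19.2%) and 1 (1.92%; 0.0487% to 10.3%). These 4 genes were below the filter of the test on summed counts, their shares were not tested across mice, and they were picked after their values were seen. Of the 73 tested ribosomal protein genes, 46 values were positive with a median of 0.04, and 0 passed.

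The study compares the sexes. The share of kept wells that were Tac1 wells without Rprm overlapped between them. Tac1 wells without Rprm made up 18.2%, 10.3% and 17.4% of the kept wells of females 1, 2 and 3 and 18.3%, 9.52% and 14.1% of those of males 1, 2 and 3. The mean of the 3 females was 15.3% (SD 4.33) and that of the 3 males 14% (SD 4.38), with an exact permutation p of 0.8 (two-sided). The values overlapped, with 1 low mouse in each sex. As a share of all wells with at least 3 Tac1 counts, they made up 69.6%, 64.3% and 48.4% for the females and 68%, 50% and 61.9% for the males, with means of 60.7% ± 11 and 60.0% ± 9.15 (exact p = 0.9). No p under 0.1 can come from 3 mice of each sex. When membership was decided after thinning wells to 1986 counts, shares were taken of the wells deep enough to be thinned. They were 16.6% ± 0.464 in females and 9.58% ± 5.40 in males (exact permutation p = 0.1, the smallest possible). Thinning left out 12, 38 and 0 wells of females 1, 2 and 3 and 1 well of each male. These shares therefore have other denominators than the shares of kept wells above, and the sexes lost wells unequally.

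Within the Tac1 wells without Rprm, 0 of 2027 genes differed between the sexes at an adjusted p under 0.05 with edgeR (0.0% in each direction), and 48 had an unadjusted p under 0.05. In simulated data with 3 mice per sex, this test recovered 30% of log2 changes of 1 and 80% of changes of 2. A gene that did not pass may thus still differ. DESeq2 called 2 genes, Eif4a2 lower and Ndn higher in males. Eif4a2, an RNA helicase gene of translation initiation, stood at 702, 641 and 331 CPM in the females and 32.9, 32.6 and 135 CPM in the males. The sexes did not overlap, as for 153 of the genes tested (7.55%), and the log2 difference was -2.95 ± 0.51 (edgeR adjusted p = 0.121, DESeq2 adjusted p = 0.000299). Without female 2 edgeR's adjusted p was 0.037 and without male 3 it was 0.021. In wells without Tac1, Eif4a2 stood at 628, 408 and 269.5 CPM in the females and 57.4, 51.2 and 138 CPM in the males, so the sexes were apart there as well. Its exons share bases with several small RNA genes and with Rfc4 on the other strand.

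Ndn, the imprinted necdin gene, stood at 796, 275 and 1648 CPM in the females and 3241, 2950 and 3586 CPM in the males (log2 1.69 ± 0.39, edgeR adjusted p = 0.846, DESeq2 adjusted p = 0.0352). In wells without Tac1 it stood at 929, 1681 and 1572 CPM and 3766, 3016 and 3659 CPM. The males were above every female in both of these kinds of well, but in wells with Tac1 and Rprm female 2, at 4369 CPM, was above the males, at 3128, 3330 and 3367 CPM. Among the other genes with the smallest p, Ybx1, which encodes an RNA-binding protein, averaged 58.9 ± 11.6 CPM over the females against 190 ± 42.2 CPM over the males, and Thy1, a neuronal surface protein gene, at 208 ± 58.3 and 411 ± 88.1 CPM. Both lacked overlap and did not pass (log2 1.52 ± 0.43 and 1.09 ± 0.33, edgeR adjusted p = 0.999 each). Basp1, a membrane protein gene of growing axons, stood at 419, 1969 and 2090 CPM in females 1, 2 and 3 and 349, 505 and 613 CPM in males 1, 2 and 3 (log2 -1.58 ± 0.48, edgeR adjusted p = 0.999), and it passed without female 1 (0.0107). Pdyn was lower in females, at 113 ± 97.4 CPM, than in males, at 274 ± 56.8 CPM, without overlap, with a log2 difference of 0.94 ± 0.44 (edgeR adjusted p = 0.999), and female 2, at 0, was the lowest. Fezf1, Adcyap1, Sox14 and Slc17a6 differed by -0.55 ± 0.36, -0.03 ± 0.41, -0.60 ± 0.60 and 0.13 ± 0.34, none past the threshold (edgeR adjusted p = 0.999 each). Of 73 ribosomal protein genes, 64 values were higher in males (median 0.23, against -0.01 over all genes) and 6 of 6 mitochondrially encoded genes were lower (median -0.15), with 0 that passed.

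**Figure D5:**
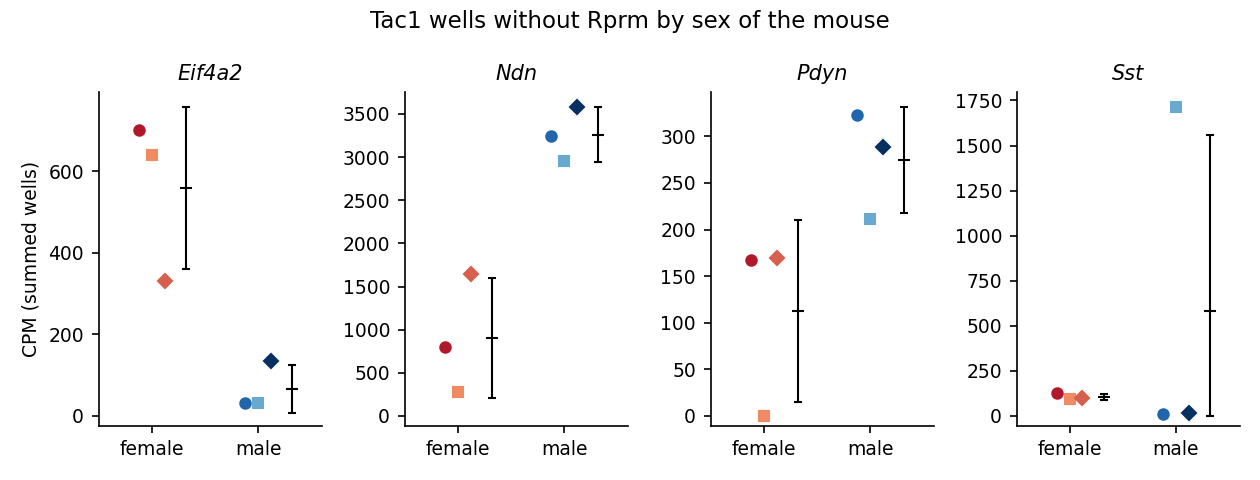
CPM of Eif4a2, Ndn, Pdyn and Sst in the summed Tac1 wells without Rprm of each mouse, females at left and males at right; points are mice, and bars give the mean and SD of 3 mice, with the lower arm stopped at 0. Eif4a2, Ndn and Pdyn do not overlap between the sexes but did not pass edgeR's test, and Sst is high only in male 2.

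The difference between Tac1 wells without Rprm and wells without Tac1 was itself compared between the sexes, as an interaction term. Of 2616 genes, 1 passed (0.0382%), and 86 had an unadjusted p under 0.05. It was Sst, whose difference was 2.06 ± 0.43 higher in males on the log2 scale (edgeR adjusted p = 0.011). No fit left out the single well with 105 Sst counts alone. Without male 2, which holds that well, the value was -1.71 with an adjusted p of 0.995. Without female 2 the adjusted p was 0.997, and without female 3 it was 0.361. Pdyn had an interaction of 1.23 ± 0.36 that did not pass (edgeR adjusted p = 0.664).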

How the data were processed

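Counts per gene and well, 1 table of 96 wells for each of 6 mice and 21926 genes, were used as deposited by the authors. HTSeq and the genome build mm10 are named in the submitters' processing notes. The aligner, versions, strand setting, treatment of multi-mapping reads and whether a count is a molecule or a read were not given in the sources used here. Kept wells had at least 500 genes and under 25% mitochondrial counts. No doublet caller was run.

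Counts were summed per mouse and kind of well (at least 3 wells each), filtered with filterByExpr, scaled by TMM and fitted with edgeR 4.0.16 (limma 3.58.1, R 4.3.3) quasi-likelihood tests with the mouse as a block, or without it between the sexes. P-values were adjusted over all genes tested (Benjamini-Hochberg, threshold 0.05). The SE beside a log2 difference was that difference over the square root of the test's F statistic. Scripts were tested on simulated data. Single values used exact permutation tests over mice (scipy 1.17.1). Shares of wells were compared after thinning each well to 1986 counts, the 10th percentile of kept wells. Alternatives were DESeq2 1.42.0, RLE factors, no filter, other rules for wells, thinning, limma on wells weighing equally and leaving out each mouse. Tables and plots used Python 3.11.15, pandas 2.3.3 and matplotlib 3.10.9. Gene positions are those of GENCODE vM21 (GRCm38/mm10).

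Wells, gene lists and tests were chosen with earlier results of these data known. Genes were named by a rule: up to 12 per direction that passed the test with a mean of at least 50 CPM in a group, the same direction in every mouse and no well holding over 50% of the counts, or otherwise the 5 with the smallest p. Up to 4 that passed per gene list and a set of tachykinin, VMH, peptide and transmitter genes were added. Nrgn, Serpine2, Gng13, Gabra5, Rab3b and Got1 passed outside this rule, and they, Scg5, Hpca, Cbln1, Bdnf, Oprk1, Lepr, Oxtr and Calb2 were named after their values were seen.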

Additional observations from a re-analysis of the deposited data

Results flagged for a closer look

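In 40 values with 1 measurement per mouse, the highest or lowest mouse was compared with the other 5, and 3 stood far from them (gap over range above 0.625). Chance gives such a gap in about 1 in 20 groups. The values are log2 differences of CPM plus 10 between Tac1 wells without Rprm and wells without Tac1. For Pcp4 the low mouse was female 3, at -1.18 against -0.57 to -0.22 in the others. For Sox14 it was female 2, at -3.05 against -0.28 to 0.99, where the Tac1 wells without Rprm held 0 Sox14 counts. For Gng13 it was female 2 as well, at -0.40 against 0.58 to 1.14. Female 2 is the shallowest plate, and the part of its depth in these values was not tested.

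The difference of Sst between Tac1 wells without Rprm and wells without Tac1 differed between the sexes by 2.06 on the log2 scale (edgeR interaction, adjusted p = 0.011). Sst was lower in the Tac1 wells of 6 of 6 mice, and without male 2 the interaction was -1.71.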

How the results depend on the processing

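Without the replicate block of the mouse, 0 genes passed in either direction against wells without Tac1, 0 against wells with both genes and 0 in the interaction. Between the sexes the mouse numbers were taken as names only. The correlations of same-numbered females and males were -0.06, -0.08 and 0.17, and those of unlike-numbered ones ran from -0.17 to 0.15. So few values cannot show whether same-numbered mice share a litter or a day of processing. With these numbers as a replicate block 0 genes were higher and 0 lower in males, 40 had an unadjusted p under 0.05, and Eif4a2 had -2.94 and Ndn 1.95 (edgeR adjusted p = 0.398 each).

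Genes higher and lower against wells without Tac1 numbered 2 and 3 with DESeq2, 8 and 53 with no filter on low counts, 1 and 1 in thinned wells, 0 and 2 with wells weighing equally in limma and 3 and 3 without wells with GABA genes or high Pomc. Genes higher numbered 5 with at least 2 Tac1 counts, 7 with at least 1000 detected genes and 6 in wells with Slc17a6, and genes lower 12 with robust spread. RLE factors called 24 genes, all 19 among them. Each of the 19 kept its direction wherever it could be tested. Signs turned for genes that did not pass: Nr5a1 had 0.027 with at least 2 Tac1 counts and 0.14 in limma, Sox14 -0.24 in limma and -0.050 without wells with GABA genes or high Pomc, and Slc17a6 -0.048 in wells with Slc17a6.

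Against wells with both genes, genes higher numbered 0 with DESeq2, 0 with at least 2 Tac1 counts, 0 in thinned wells, 0 in limma, 2 with robust spread and 2 with at least 5 Tac1 counts, and with no filter 6 were higher and 4 lower. Fezf1 had -0.038 without the block and -0.080 with at least 2 Tac1 counts, where Slc17a6 had -0.0075. Between the sexes, 1 gene was higher and 1 lower in males with DESeq2, and 6 and 3 with no filter, where Adcyap1 had 0.093. The interaction count was 0 with DESeq2, 0 with robust spread and 4 with no filter.

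The share of Tac1 wells that lacked Rprm, males minus females, turned from -0.78 points to 0.238 with at least 5 Tac1 counts, 0.138 with at least 1000 detected genes and 1.22 with wells chosen after thinning. Among shares of wells, in points against wells without Tac1, requiring 2 counts gave 0 for Esr1, 0 for Pgr, -0.0097 for Nr5a1 and -1.68 for Fezf1. No thinning gave 1.91 for Pgr and 2.35 for Pomc, and comparison wells with Slc17a6 gave 0.472 for Pgr, -3.58 for Slc17a6 and -0.408 for Cartpt. Against wells with both genes, no thinning gave -2.01 for Gad1 and -6.29 for Cartpt.

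Leaving out 1 mouse at a time gave 2 to 19 genes higher and 3 to 11 lower against wells without Tac1, 0 to 4 and 0 to 1 against wells with both genes, 0 to 1 higher and 0 to 2 lower in males, and 0 to 3 in the interaction. Ranges that crossed 0 were -0.47 to 0.22 for Pdyn in the first comparison, -0.15 to 0.19 for Fezf1 and -0.0022 to 0.25 for Slc17a6 in the second, -0.39 to 0.21 for Adcyap1, -2.75 to 2.88 for Sst and -0.10 to 0.47 for Slc17a6 between the sexes, and -1.71 to 2.67 for Sst, -0.0078 to 0.26 for Slc17a6 and -0.32 to 0.64 for Nr5a1 in the interaction. By sex, the share of kept wells ranged from -3.83 to 0.882 points and that of Tac1 wells from -6.96 to 4.21. The depth gap stayed at 1402 to 1939 counts and 333 to 440 genes, with an exact permutation p of 0.0625, the smallest that 5 mice allow. Shares against wells without Tac1 ranged from -0.988 to 0.387 for Pgr, -1.63 to 4.04 for Nr5a1, -1.08 to 2.64 for Cartpt and -5.64 to 0.288 for Pomc. Against wells with both genes they ranged from -4.92 to 1.33 for Pgr, -13.5 to 1.51 for Nr5a1, 0 to 0.0833 for Gad1, -1.04 to 2.79 for Cartpt, -6.24 to 1.33 for Sst and 0 to 1.18 for Gal.

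The robust spread, the wells without GABA genes or high Pomc, and the shares against wells with both genes with no thinning or without 1 mouse were chosen after seeing the data. Fewer genes or wells enter the thinned and stricter settings, and otherwise the cause of a change was not tested. The wells are shallow, so a gene with 0 counts in a well may still be expressed there, and genes such as Esr1, Pgr and Tacr1 were too low for the test on summed counts. With 1 plate per mouse, plate and mouse cannot be told apart.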
